A study of Mus musculus with 16 samples.

Results

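The Sprouty and Spred genes encode the feedback inhibitors that act between receptor tyrosine kinases and ERK. They were chosen by name, and all 6 members sought, Spry1, Spry2, Spry4, Spred1, Spred2 and Spred3, were among the 16383 genes listed. Their transcripts were measured by mRNA sequencing of undifferentiated spermatogonia, the dividing testis cells from which sperm arise and among which the stem cells are found. The cells were sorted by flow cytometry from adult mice, all of which had received busulfan, an alkylating drug that kills germ cells, at 10 mg/kg and were sampled at day 10. From day 3, mice were injected daily for 7 days with vehicle holding 10% DMSO or with 2.5 mg/kg PD0325901, an inhibitor of the MEK kinases that activate ERK.

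The 16 libraries formed 4 groups of 4, named here WT_vehicle, WT_PD, KO_vehicle and KO_PD, where PD stands for PD0325901. Wild-type libraries carry Spry4ff in their column names, and knockout libraries, titled Spry4 G-KO and described as Spry4 germline-knockout, carry GCRT_Spry4KO. What GCRT names is not given in the sources used here, and since only knockout names carry it, its effect and the loss of Spry4 cannot be told apart. The Cre or promoter behind the knockout, the part of Spry4 removed, the surface markers of the sort and the age in numbers are likewise not given in the sources used here. Each column name also holds an SP number of its own, different for every library, and what it records is not given. No label ties the 4 replicates of a group to different mice, so p-values measure only the spread between these libraries, which may be technical.

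Sprouty and Spred proteins close a negative feedback loop. Growth factor receptors activate RAS, RAF, MEK and ERK in turn, ERK signalling raises transcription of Sprouty genes, and the proteins then restrain the same route. Sprouty proteins share a cysteine-rich carboxy-terminal domain and an amino-terminal tyrosine which, once phosphorylated, binds partners such as the ubiquitin ligase CBL. Spred proteins carry an amino-terminal EVH1 domain, through which SPRED1 brings the RAS-GTPase activating protein neurofibromin to the membrane. In undifferentiated spermatogonia the route carries signals from GDNF, through the receptor RET and its co-receptor GFRA1, and from fibroblast growth factors.

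Levels are FPKM, which are sequenced fragments divided by gene length and by library size, and differences are of log2(FPKM + 0.5). A gene was called where the Benjamini-Hochberg adjusted p of limma, over all 12907 genes tested, was under 0.05. All 6 members passed the filter for testing, which asked for 4 or more libraries at 1 FPKM or above. Spred3 did so narrowly, with 5 libraries at 1 FPKM or more. Read numbers recovered from the values ran from 86 to 315 a library for Spred3 and were at least 943 for the other members. They rest on the smallest library divisor that gives whole reads; a multiple of it would also give whole reads, and more of them. On that choice, counting error alone is a coefficient of variation of 10.8% for Spred3 where it is lowest, and at most 3.26% for the others.

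All 14 markers of undifferentiated spermatogonia were tested, and their summed level was 782 to 1188 FPKM. Markers of smooth muscle and peritubular myoid cells, which surround vessels and tubules, summed to 1251 to 12640 FPKM, and 11 of 11 were tested. These sums overlapped among all 4 groups. Acta2, smooth muscle actin, made up much of that range, at 367 to 5095 FPKM. With PD0325901 all 11 markers were lower in the wild type (median log2 difference -0.48) and higher in the knockout (median 0.67). Acta2 itself was at -0.66 between genotypes under vehicle and at 0.60 under PD0325901. None of these differences was called, and their part in the member differences was not tested. Endothelial markers summed to 19.9 to 64.7 FPKM and Sertoli markers to 5.61 to 16.8. Macrophage and leukocyte markers summed to 3.54 to 11.2, with Adgre1 and Ptprc under 0.5 in all libraries, and the 2 Leydig markers in the table, of 6 listed, to 2.72 to 24.7. Differentiating spermatogonia markers summed to 60.8 to 113 FPKM. Spermatid markers summed to 8.59 to 122 FPKM in 15 libraries and to 2579 in KO_vehicle 3, which stands apart. Column names also carry library numbers in an unbroken run from 440 to 455, which was divided here, not by the authors, into a lower set (440 to 447) and a higher set (448 to 455), with replicates 1 and 2 of every group in the lower set. What the numbers record is not stated. Values within each set of 8 are given for averaged differences and interactions whose sign differed between them, and for some others.

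Among the Sprouty genes, Spry2 had the highest transcript level. Its mean over the 16 libraries was 37.6 FPKM ± 15.2 (SD), against 29.7 ± 8.73 for Spry1 and 16.8 ± 6.16 for Spry4. Spry2 exceeded Spry4 in 16 of 16 libraries and Spry1 in 12 of 16, so the order of Spry2 and Spry1 did not hold in every library. Among all tested genes, the mean level of Spry2 stood at percentile 90.7, that of Spry1 at 87.1 and that of Spry4 at 72.7.

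Spred2 led the Spred genes at 22.3 FPKM ± 1.67 (SD, n = 16), followed by Spred1 at 16.6 ± 2.12. Spred1 was below Spred2 in 16 of 16 libraries. Spred3, whose protein lacks a working KIT-binding domain, was at 0.886 ± 0.246, percentile 1.69 of the tested genes. Spred1 and Spred2 were also the steadiest members. Spred2 spanned 1.30-fold from its lowest to its highest library and Spred1 1.69-fold, whereas Spred3 spanned 2.80-fold, Spry1 2.60-fold, Spry2 3.49-fold and Spry4 3.76-fold.

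**Figure D1:**
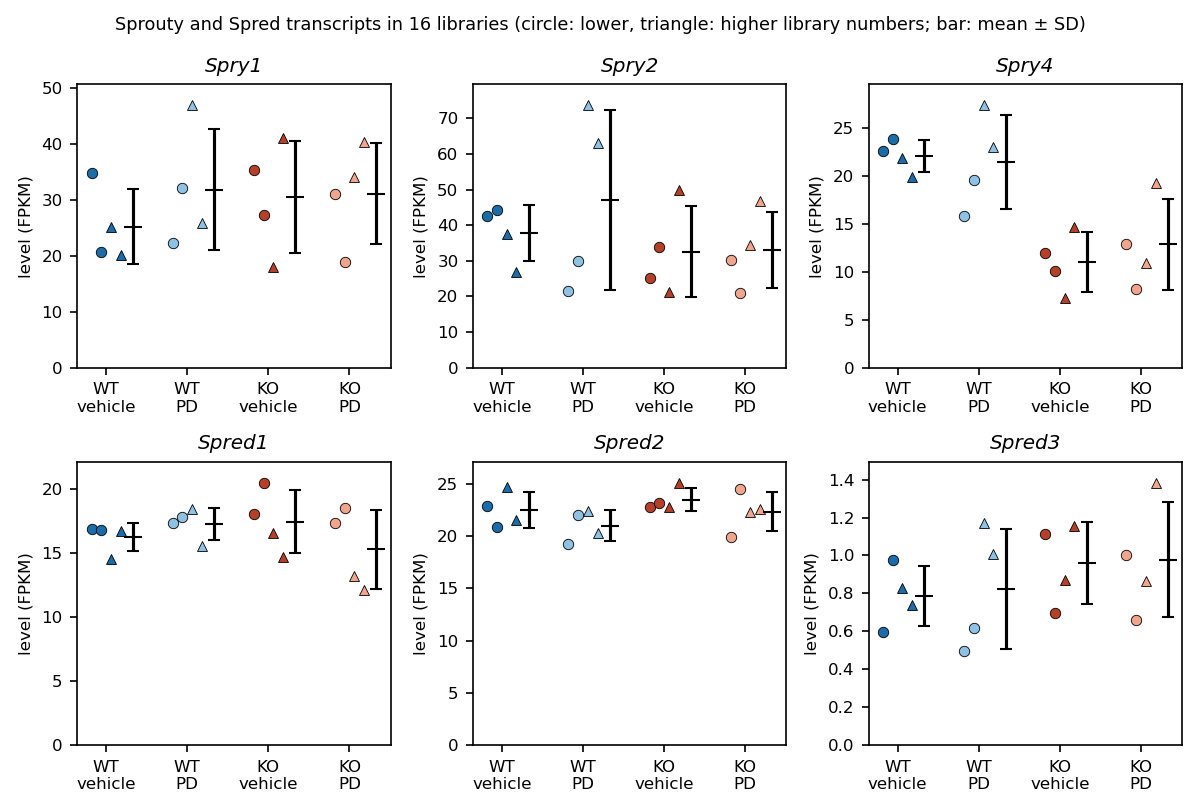
Level of each member in every library, in FPKM, by group. Points are libraries, with circles for the lower and triangles for the higher library numbers, and bars are the mean ± SD of 4 libraries. The Spry4 points of KO_vehicle, 7.28 to 14.7, lie under all those of WT_vehicle, 19.9 to 23.8, and the other members overlap between groups.

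Spry4 (ENSMUSG00000024427, GRCm38 chromosome 18, 38586247 to 38601415, minus strand) is the gene the knockout targets. Under vehicle its level was 22.6, 23.8, 21.9 and 19.9 FPKM in wild-type replicates 1 to 4, and 11.97, 10.1, 7.28 and 14.7 in the knockout. Under PD0325901 it was 15.9, 19.6, 27.4 and 23.0 in the wild type and 13.0, 8.23, 11.0 and 19.3 in the knockout. No knockout library was near 0, and vehicle groups did not overlap, whereas under inhibitor KO_PD 4 reached into the wild-type range.

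The knockout held 49.9% of the wild-type mean under vehicle and 60.0% under PD0325901. The log2 difference was -1.01 (SE 0.24) under vehicle, with an unadjusted limma p of 0.000831 and an adjusted p of 0.9998. Over the 2 treatments together it was -0.88 (SE 0.17, 95% interval -1.24 to -0.52), and 7 of 8 knockout libraries lay below the lowest wild-type one. A two-sided exact permutation test of that averaged difference gave p = 0.000816, where 0.000408 is the smallest possible. Under vehicle alone the exact permutation p was 0.0286, the smallest that 4 against 4 allows, and under PD0325901 it was 0.0571, with a log2 difference of -0.75 (SE 0.24). Groups without overlap were found for 1.46% of tested genes under vehicle and 2.28% under PD0325901.

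The adjusted limma test called no gene in any of the 7 group comparisons, 0% of those tested, and thus did not call Spry4. Unadjusted p-values under 0.05 were found for 251 genes between the vehicle groups (1.94%), 605 between the inhibitor groups (4.69%) and 561 over both treatments (4.35%). By that unadjusted p, Spry4 ranked 1 of 12907 under vehicle and over both treatments, and 45 under PD0325901. The difference was -0.89 (SE 0.15) within the lower library numbers and -0.87 (SE 0.26) within the higher ones.

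Adding log2 Acta2 as a term left the Spry4 difference at -0.87 and narrowed its SE to 0.12. With that term the adjusted limma p was 0.0348, and Spry4 was the only gene called, 0.00775% of those tested. This call did not hold up against leaving out single libraries. It was lost in 13 of 16 such fits, in which the adjusted p reached 0.141, while the difference stayed between -0.95 and -0.80. The 3 libraries whose removal kept it were WT_PD 4, KO_PD 2 and KO_PD 4.

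The targeted gene is thus lower in the libraries labelled knockout but still present in each of them, at a mean of 11.9 FPKM ± 3.83 (SD, n = 8) against 21.8 ± 3.40 in the wild type. These are levels for the whole gene, so they do not show which exons the reads came from. In bulk samples, fewer cells that express a gene and less of its RNA in each cell cannot be told apart.

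Compensation by paralogs was examined next. No paralog was called between the genotypes. Spry1 (ENSMUSG00000037211, GRCm38 chromosome 3, 37639947 to 37644598, plus strand) is the paralog known for restraining GDNF signalling in the developing kidney. Under vehicle Spry1 was 34.8, 20.8, 25.2 and 20.1 FPKM in the wild type and 35.4, 27.4, 18.1 and 41.1 in the knockout. The knockout thus held both the highest and the lowest of these libraries, and the averaged log2 difference was 0.10 (95% interval -0.34 to 0.55; exact permutation p = 0.636).

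Spry2 (ENSMUSG00000022114, GRCm38 chromosome 14, 105891947 to 105896819, minus strand), whose protein binds CBL, was 42.7, 44.4, 37.4 and 27.0 FPKM in vehicle-treated wild type and 25.3, 33.9, 21.2 and 49.9 in the knockout. Every knockout value but 1 lay under the wild-type median of 40.1, and that exception, KO_vehicle 4, was the highest value of all 8. The averaged log2 difference was -0.32 (95% interval -0.89 to 0.24; exact permutation p = 0.256).

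Spred1 (ENSMUSG00000027351, GRCm38 chromosome 2, 117121374 to 117182279, plus strand) differed by -0.05 (95% interval -0.24 to 0.15; exact permutation p = 0.628). Within the lower library numbers this difference was 0.11 and within the higher ones -0.20, neither called. Spred2 (ENSMUSG00000045671, GRCm38 chromosome 11, 19924375 to 20024026, plus strand) differed by 0.07 (-0.04 to 0.19; exact permutation p = 0.152), the narrowest interval of the members. Spred3 (ENSMUSG00000037239, GRCm38 chromosome 7, 29158829 to 29170411, minus strand) differed by 0.17 (-0.12 to 0.47; exact permutation p = 0.194), on a scale that understates changes this close to 0. A p that misses the threshold does not show that a paralog is unaffected. The averaged intervals leave room for a rise of up to 0.55 in Spry1, 0.47 in Spred3 and 0.24 in Spry2 on the log2 scale. Those under vehicle alone leave room for 0.87 in Spry1, 0.59 in Spred3, 0.53 in Spry2 and 0.37 in Spred1.

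**Figure D2:**
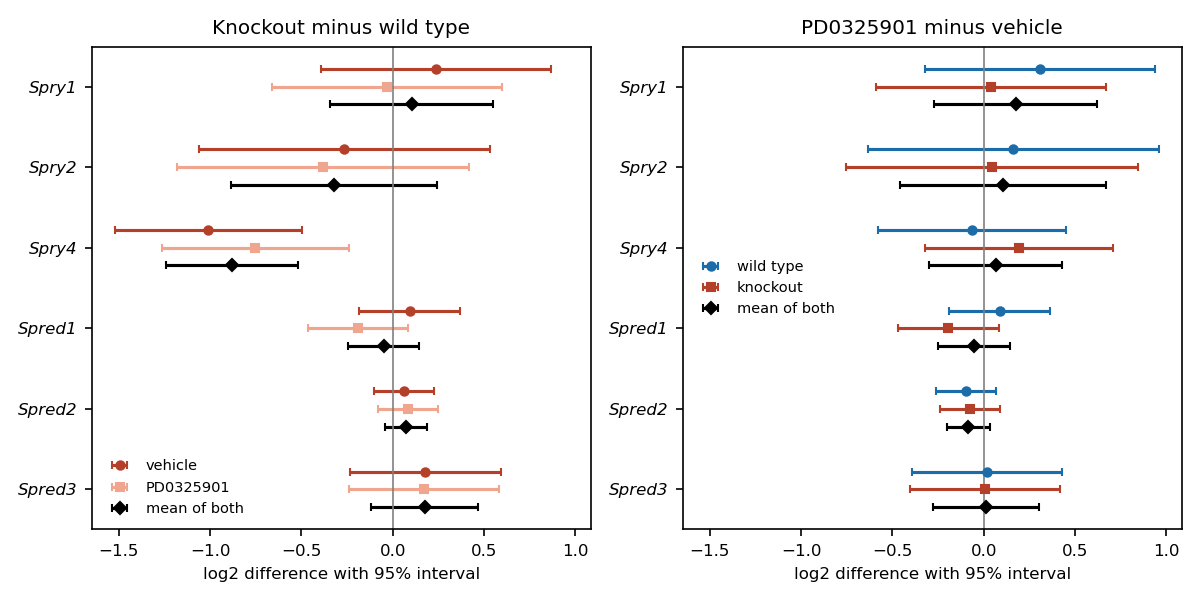
Log2 difference of each member between genotypes (left) and between PD0325901 and vehicle (right), with 95% intervals from limma. Markers show each arm and the mean of both. Only the 3 intervals of Spry4 between genotypes lie wholly to one side of 0, from -1.24 to -0.52 for the mean of both treatments.

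Summed over the branch, Spry1 and Spry2 together came to 63.1 FPKM ± 12.5 (SD, n = 4) in WT_vehicle and 63.1 ± 21.3 in KO_vehicle. With PD0325901 the same sum was 78.9 ± 33.3 in the wild type and 64.2 ± 19.5 in the knockout. All Sprouty transcripts together came to 85.2 ± 13.8, 100.3 ± 38.2, 74.1 ± 24.3 and 77.1 ± 23.8 in WT_vehicle, WT_PD, KO_vehicle and KO_PD. These sums overlapped between every pair of groups.

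As a share of the Sprouty sum, Spry4 made up 18.5% to 29.7% in wild-type libraries and 13.8% to 18.2% in knockout ones. The genotypes did not overlap in this share over all 16 libraries, although they did in Spry4 itself. The share is a description, since Spry4 both defines the genotype and stands in the ratio. The sum of the Spred genes was flat by comparison, at 39.5 ± 0.808, 39.1 ± 2.54, 41.9 ± 1.82 and 38.6 ± 3.52 FPKM in the same order of groups.

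**Figure D3:**
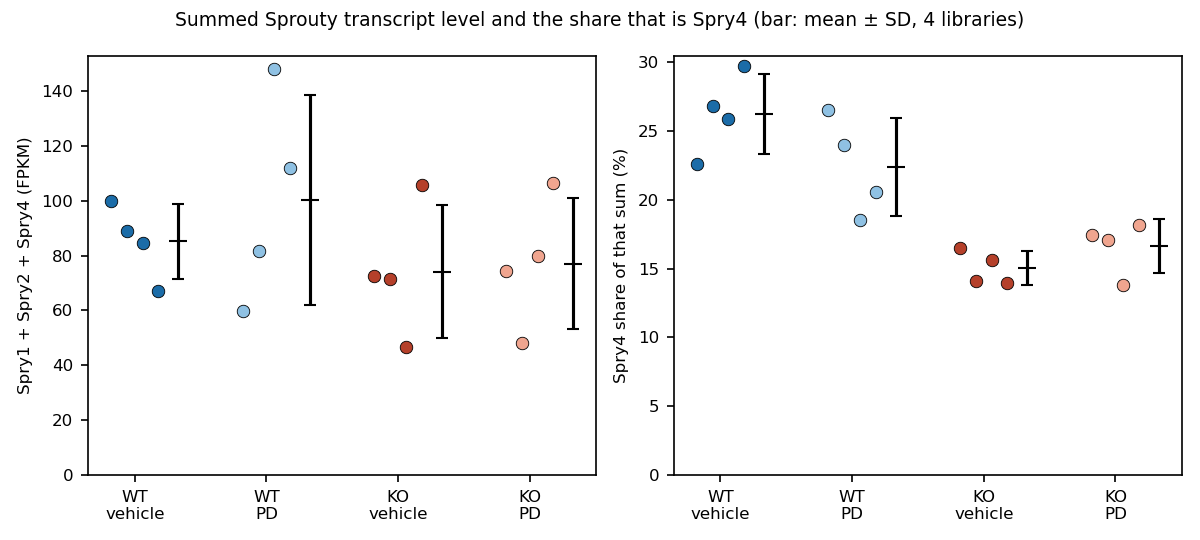
Sum of Spry1, Spry2 and Spry4 in FPKM (left) and the percentage of that sum that is Spry4 (right), by group, with 1 point per library and mean ± SD of 4 libraries as bars. The sums overlap among groups, and the shares separate wild type, 18.5% and above, from knockout, 18.2% and below.

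Inhibition of MEK is the perturbation under which ERK-driven feedback genes are of interest. No member was called between PD0325901 and vehicle in either genotype, and neither was any other gene. Unadjusted p-values under 0.05 were found for 115 genes in the wild type (0.891%), 382 in the knockout (2.96%) and 238 over both genotypes (1.84%). No member was among them, which at such shares is near the background and is not a result about this family. Groups without overlap made up 0.659% of tested genes in the wild type and 1.7% in the knockout, and again held no member.

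With PD0325901 the levels of Spry2 were 21.6, 29.8, 73.6 and 63.1 FPKM in the wild type and 30.2, 21.1, 34.5 and 46.7 in the knockout. In the wild type, replicate 1 lay below all vehicle libraries, replicates 3 and 4 above all of them, and replicate 2 within their range. Accordingly the averaged log2 difference of 0.10 (95% interval -0.46 to 0.67; exact permutation p = 0.713) combined opposite values. It was -0.49 (SE 0.16) within the lower library numbers and 0.69 (SE 0.29) within the higher ones, with adjusted limma p-values of 0.851 and 0.573. In the wild type Acta2 moved with this split, at 571 and 367 FPKM in WT_PD 1 and 2 and at 5095 and 3035 in WT_PD 3 and 4. In the knockout Acta2 was 1803 and 1345 in KO_PD 1 and 2, against 1751 and 988 in KO_vehicle 1 and 2. The Spry2 difference in these lower-numbered knockout libraries was -0.21. For KO_PD 3 and 4 Acta2 was 1800 and 3937, against 538 and 2910 in KO_vehicle 3 and 4. The part of Acta2 in the result was not tested.

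Spry1 with PD0325901 was 22.4, 32.2, 46.9 and 26.0 FPKM in the wild type and 31.0, 18.9, 34.2 and 40.3 in the knockout. WT_PD 3 lay above all vehicle libraries of its genotype, and the other inhibitor-treated libraries lay within the vehicle ranges. Its averaged difference was 0.17 (-0.27 to 0.62; exact permutation p = 0.431), with -0.18 in the lower and 0.53 in the higher library numbers. Spry4 differed by 0.07 (-0.30 to 0.43; exact permutation p = 0.722), with -0.24 and 0.37 in the same sets. Each of the 3 Sprouty genes thus had a negative value among the lower numbers and a positive one among the higher, as did Spred3 at -0.17 and 0.20, with none of these values called.

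Spred2 under PD0325901 was 19.3, 22.1, 22.4 and 20.3 FPKM in the wild type, against 22.8, 20.9, 24.7 and 21.5 with vehicle, and 19.9, 24.5, 22.3 and 22.5 in the knockout, against 22.8, 23.2, 22.8 and 25.1. The averaged difference was -0.08 (-0.20 to 0.03; exact permutation p = 0.104), and it was negative in both genotypes and in both sets of library numbers. Spred1 differed by -0.05 (-0.25 to 0.14; exact permutation p = 0.595) and Spred3 by 0.01 (-0.28 to 0.30; exact permutation p = 0.921), which combined the -0.17 and 0.20 given above.

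The interaction of genotype and inhibitor asks whether the response to PD0325901 depended on Spry4. No member was called, and 1.71% of genes had an unadjusted p under 0.05. The interaction was 0.26 (SE 0.34) for Spry4, -0.27 (SE 0.42) for Spry1 and -0.28 (SE 0.18) for Spred1. The other 3 members lay between -0.12 and 0.02. For Spry2, at -0.12, it was 0.56 (SE 0.33) within the lower library numbers and -0.79 (SE 0.57) within the higher ones, and for Spred3 0.20 (SE 0.37) and -0.21 (SE 0.31), none of them called.

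Other genes of the route were read from 5 lists. None of their members was called in a group comparison. Between genotypes, the 16 other feedback inhibitors had a median log2 difference of 0.01, against -0.02 for all genes, with 9 above 0 and 7 below. The smallest unadjusted p-values there belonged to Dusp7 and Dusp6, phosphatases of ERK, and Il17rd, the Sef inhibitor. Their log2 differences were 0.22, 0.25 and 0.12. Among 16 genes of ERK-dependent transcription 5 lay above 0 and 11 below, with a median of -0.15. Under vehicle 12 of 16 lay below 0 (median -0.23), and under PD0325901 11 of 16 lay above 0 (median 0.06). Medians over all genes were -0.008 and -0.014 in these arms. Smooth muscle markers lay below 0 for 10 of 11 under vehicle (median -0.64) and above 0 for 11 of 11 under PD0325901 (median 0.53). Of the ERK-dependent genes, Egr2 at 0.41 and the ETS factor Etv5 at 0.29 had the smallest p-values over both treatments. Of 16 receptors, 8 lay above 0 and 8 below, with Ret, the GDNF receptor, at 0.25 (SE 0.09, adjusted p = 0.998 by limma). Binding partners of the family lay above 0 for 4 of 13, and RAS, RAF, MEK, ERK and adaptor genes for 5 of 24 tested, of 25 listed, with medians of -0.06 and -0.04.

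With PD0325901, 11 of the 16 other feedback inhibitors lay below 0, with a median of -0.04 against 0.01 for all genes. Il17rd at -0.14 had the smallest unadjusted p. In ERK-dependent transcription 10 of 16 lay above 0 and the median was 0.05, an average of unlike arms. In the wild type 12 of 16 lay below 0 (median -0.21), and in the knockout 11 of 16 lay above 0 (median 0.18). The interaction was above 0 for 13 of 16, with a median of 0.38. Medians over all genes were 0.008 in the wild type, 0.002 in the knockout and -0.014 for the interaction. Smooth muscle markers had the same signs, with medians of -0.48 in the wild type and 0.67 in the knockout. Their interaction was above 0 for 11 of 11, with a median of 1.13. The part of smooth muscle cells in the ERK-dependent values was not tested. Over both genotypes the immediate early genes with the smallest p-values were negative, Egr1 at -0.36 (SE 0.14) and Egr3 at -0.29 (SE 0.13). Ret was at -0.23 (SE 0.09). None of these passed the adjusted test, whose p was 0.9999 for Egr1.

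The relation to Acta2 was strongest for 3 members. Acta2 is a smooth muscle gene and not a germ cell one, and its level varied 13.9-fold over the libraries. In limma, a slope on log2 Acta2 beside the group means was called higher for Spry2, at 0.38 (SE 0.08, adjusted p = 0.00113), Spry4, at 0.23 (SE 0.06, adjusted p = 0.00425), and Spred3, at 0.20 (SE 0.04, adjusted p = 0.00126). The slope is the log2 change of a member for each doubling of Acta2. It was called for 53.8% of the genes tested, 32% higher and 21.7% lower, so 3 of 6 members is near the background and is not a result about this family. Spry1 at 0.18 (adjusted p = 0.103), Spred1 at -0.06 (adjusted p = 0.261) and Spred2 at 0.02 (adjusted p = 0.614) were not called.

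After group means were removed, Pearson's r with Acta2 over 16 libraries was 0.861 for Spred3 (Spearman's rho 0.862), 0.791 for Spry2 (rho 0.791) and 0.736 for Spry4 (rho 0.797). Permutation p-values of r within groups were 0.00122, 0.0141 and 0.00118, and those of rho 0.00112, 0.0112 and 0.00156. For Spry1 r was 0.474 (rho 0.447; permutation p = 0.108 and 0.143), for Spred1 -0.36 (rho -0.28; p = 0.125 and 0.287) and for Spred2 0.188 (rho 0.156; p = 0.512 and 0.578). These 6 relations are unadjusted, since the adjustment over all genes was made for the slopes. Between 16.4% and 25.3% of tested genes had a higher r than the 3 called members. Without WT_PD 2 and KO_vehicle 3, the 2 libraries farthest from the median of Acta2, r was 0.932 for Spred3, 0.763 for Spry2 and 0.768 for Spry4.

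The relation was unequal between the sets of library numbers. For Spry2 r was 0.986 in the higher 8 libraries and -0.21 in the lower 8, for Spry4 0.961 and 0.274, and for Spry1 0.923 and -0.39. For Spred3 it was 0.838 and 0.762. Acta2 spanned 367 to 2890 FPKM in the lower set and 538 to 5095 in the higher one. In the lower set no member's slope was called, and 120 genes were (0.93% of those tested), whereas in the higher set Spry1 (0.48), Spry2 (0.48) and Spry4 (0.43) were called among 3842 genes (29.8%). Within the lower numbers the slopes of these 3 Sprouty genes were -0.23 (SE 0.24), -0.08 (SE 0.17) and 0.10 (SE 0.16). That set holds only replicates 1 and 2 of every group, so a missed call there does not show that the relation is absent. The difference between the sets was not tested.

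By genotype, the slope of Spry4 was 0.13 in the wild type and 0.48 in the knockout, called in both, and that of Spry1 was 0.06 and 0.50, called in the knockout only. Of all genes tested, 45.4% had a called slope within the wild type and 25.3% within the knockout. The difference between genotypes was not tested. Within the knockout, the Spry4 level went with Acta2 at r = 0.931 over 8 libraries, with KO_vehicle 3 lowest in both (7.28 and 538 FPKM) and KO_PD 4 highest in both (19.3 and 3937 FPKM). The 14 undifferentiated spermatogonia markers went the other way: their mean log2 level had an r of -0.89 with Acta2, -0.91 with Spred3, -0.85 with Spry2 and -0.80 with Spry4 over the same 16 libraries. Of the other lists, the smooth muscle one, which holds Acta2, had an r of 0.998 with it. The Leydig list, of which 1 gene was tested, had an r of 0.988 with Acta2, 0.859 with Spred3, 0.769 with Spry2 and 0.717 with Spry4. Sertoli markers had an r of 0.522 with Acta2, macrophage and leukocyte markers 0.489 (0.616 with Spry2), endothelial markers 0.116, differentiating spermatogonia markers -0.31 and spermatid markers -0.40. The part of these cell types in the member levels was not tested.

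**Figure D4:**
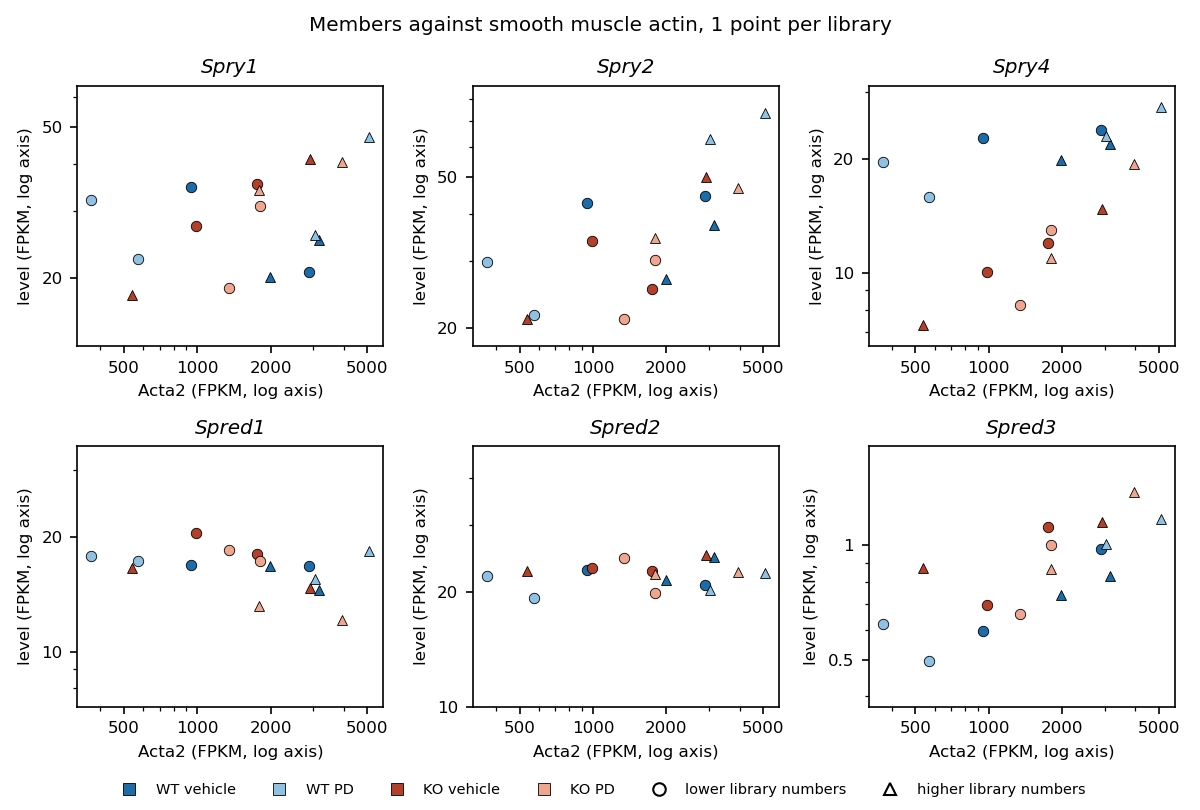
Level of each member against Acta2, both in FPKM on log axes, with 1 point per library, color for group and circles or triangles for lower or higher library numbers. Spry2, Spry4 and Spred3 rise from left to right, Spred2 is level at 19.3 to 25.1, and the knockout points of Spry4 lie below the wild-type ones at like Acta2.

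Over all 16 libraries this slope was called higher for 32% of tested genes and lower for 21.7%, the background for the lists of the route. It was called higher for 14 of 24 tested RAS, RAF, MEK, ERK and adaptor genes and lower for 2. Of 13 binding partners of Sprouty and Spred proteins 9 were called higher, among them the phosphatase gene Ptpn11 at 0.30 and the caveolin gene Cav1 at 0.77, and 1 lower. Of ERK-dependent genes 8 of 16 were called higher, with Myc at 0.58 and Junb at 0.59, and 0 lower. The other feedback inhibitors divided into 7 higher, such as Errfi1 at 0.52, and 4 lower, such as Nf1 at -0.12. Of the receptors 3 of 16 were called higher, Fgfr1 at 0.41, Fgfr2 at 0.71 and Insr at 0.29, and 2 lower.

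Members also went together among themselves. After removal of group means, r over the 16 libraries was 0.826 for Spry2 and Spry4 (rho 0.818), 0.824 for Spry1 and Spry4 (rho 0.718) and 0.692 for Spry1 and Spry2 (rho 0.665). Spred3 went with Spry4 at 0.818 (rho 0.835) and with Spry2 at 0.749 (rho 0.726). Spred1 was negative to each of the other members, from -0.49 with Spred3 to -0.14 with Spred2. With the Acta2 slope removed as well, Spry1 and Spry4 stayed at 0.797, while Spry2 and Spred3 were at 0.218. These 15 values share libraries and depth and are given as a description.

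Group membership accounted for 66.8% of the variance of log2 Spry4, 29.8% of that of Spred2 and 19.2% of that of Spred1. For Spred3, Spry2 and Spry1 it accounted for 12.3%, 10.8% and 8.91%, near the 8.84% of Acta2. For every member but Spry4, most variation was thus between libraries of the same group. These shares were not tested, and group means take up part of the variance even where groups do not differ.

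The genes whose group-centred levels were most like a member's were ranked by Pearson's r over the 16 libraries. For Spry4 they were Tmem204 (0.961), Mfge8 (0.957) and Cyb5a (0.957). For Spry2 they were the RNA-binding factor gene Zfp36 (0.962), Ddit4 (0.960) and Myc (0.949), and for Spry1 they were Ankrd50 (0.970), Prr5l (0.964) and Wipf1 (0.957). Spred3 was closest to Zfp784 (0.977), Slc31a2 (0.976) and Nprl3 (0.969), and Spred1 to Zfp946 (0.962), Uevld (0.954) and Alg10b (0.948). Spred2 had no close match, with Mthfd1l first at 0.794, followed by Zfpm1 at 0.776 and Tfe3 at 0.774. The matches of Spry4 had an r with Acta2 of 0.807 to 0.835, those of Spry2 0.809 to 0.887 and those of Spred3 0.811 to 0.899. For the matches of Spry1 it was 0.477 to 0.515, of Spred1 -0.477 to -0.418 and of Spred2 0.0226 to 0.469. Whether the matches go beyond a shared relation to Acta2 was not tested.

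Promoter windows from RefSeq (GRCm38.p6), 250 bases before to 50 after the gene start, were matched by symbol for 5 of 6 members. The 2 of the called members with a window are shown, 250 bases before the start, on the gene's strand, with GC-box letters GGGCGGGG in capitals. Spry2 is at chr14:105896820-105897069 and Spred3 at chr7:29168648-29168897, both on the minus strand. The RefSeq start of Spry2 is the end of its GENCODE span. That of Spred3 is the start of its protein-coding GENCODE transcript, 29168647, while 2 non-coding transcripts begin 1194 and 1764 bases upstream. The 250 bases shown for Spred3 thus lie within the gene span given above and meet 0 of its exons. The letter searches and GC content below used the whole windows, with the 50 bases after the start.
Spry2: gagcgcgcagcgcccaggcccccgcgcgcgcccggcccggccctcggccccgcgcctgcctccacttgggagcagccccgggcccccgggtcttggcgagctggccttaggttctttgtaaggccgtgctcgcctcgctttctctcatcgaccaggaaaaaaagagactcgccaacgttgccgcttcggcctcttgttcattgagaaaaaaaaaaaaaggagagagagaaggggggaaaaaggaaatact
Spred3: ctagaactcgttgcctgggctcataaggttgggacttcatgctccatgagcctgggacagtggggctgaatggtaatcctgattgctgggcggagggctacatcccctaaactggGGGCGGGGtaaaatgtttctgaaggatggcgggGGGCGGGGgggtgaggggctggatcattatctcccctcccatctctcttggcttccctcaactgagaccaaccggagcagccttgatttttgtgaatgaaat
Spred3 held 2 GC-box matches and Spry2 none. In all, 6 sets of letters were searched on both strands, after the slopes on Acta2 had been seen. They were the extended ETS sequence CCGGAAGT, the cyclic AMP element TGACGTCA, the AP-1 site TGANTCA, the E-box CACGTG, the GC-box, and the serum response element CArG. Of 32851 windows of the same length 17.6% held a GC-box, 7.81% an AP-1 site, 7.15% an E-box, 3.89% the ETS letters, 1.79% the cyclic AMP element and 1.63% CArG. Of these exact letters, none but the GC-box occurred in the 5 windows. Shorter forms, such as the core of the ETS sequence, were not searched. GC content was 62.7% for Spry2 and 55.0% for Spred3, against a median of 52.7% over all windows.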

How the data were processed

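The deposited table holds FPKM values, which the authors computed per library, per the labels. FastQC, STAR 2.7.10a, edgeR 4.0.14 and the builds mm10 and GRCm39 are named, without roles, per the submitters' processing notes. The sources used here name no counter, gene lengths, filter or scaling. Of 16383 symbols, 15791 (96.4%) matched GENCODE M21 (GRCm38), used for identifiers and positions. Divisors estimated from low values ran from 23360600 to 36615100, with 92.9% to 94.26% of values under 100 reads within 0.1 of a whole number. They are the smallest that give whole reads. In 5 of 16 libraries the reads in listed genes exceed the divisor, so there it is not the depth alone.

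limma 3.58.1 in R 4.3.3 was fitted to log2(FPKM + 0.5) of 12907 genes (3476 left out), with 1 mean per group, all 16 libraries and a variance trend, after a check on simulated data. Single values had two-sided exact permutation tests, and r and rho 100000 permutations within groups. The members, gene lists, model and rule for named genes (members, Acta2, the 3 genes most like each member, up to 4 genes a list) were chosen with earlier results of these data known. Voom on recovered reads, scaling, filters, pseudocounts, added terms and left-out libraries were alternatives. Those within library-number sets, with the endothelial mean, or joining the Acta2 term with a left-out library were chosen after seeing the data.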

Additional observations from a re-analysis of the deposited data

Results flagged for a closer look

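Among 24 sets of 4 libraries, the 6 members in 4 groups, 1 held a library far from the others by Dixon's criterion. Spred1 was 14.6 FPKM in WT_vehicle 3, against 16.8, 16.9 and 16.8 in replicates 2, 1 and 4, with a gap to the nearest of them that was too wide a part of the whole range for a set of 4. Chance alone flags about 1 in 20 such sets.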

How the results depend on the processing

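Over 1490 recomputed member values, 1381 kept their direction and their side of the threshold, 85 changed sign, 17 lost a call and 7 gained one. The number of genes called stayed at 0 in every group comparison and alternative, voom included, except with log2 Acta2 as a term, where 1 gene was called over both treatments. That gene was Spry4, at -0.87. Leaving out single libraries with this term gave -0.95 to -0.80 and 0 to 2 genes called. Without the term, leaving out single libraries moved the averaged Spry4 genotype difference from -0.99 to -0.79.

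With the Acta2 term, PD0325901 minus vehicle in the knockout turned to -0.12 for Spred3, -0.080 for Spry1 and -0.21 for Spry2, in the wild type to 0.073 for Spry4, and the Spry4 interaction to -0.031. With the term and without KO_vehicle 3, the knockout inhibitor differences were -0.071 for Spred3, -0.22 for Spry1, -0.23 for Spry2 and -0.030 for Spry4. The wild-type Spry4 one was 0.056, the interactions were -0.0020 for Spred2 and -0.087 for Spry4, and the vehicle genotype difference of Spry2 was 0.0063. None was called.

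Within the lower 8 library numbers, the averaged inhibitor difference was -0.17 for Spred3, -0.18 for Spry1, -0.49 for Spry2 and -0.24 for Spry4. In the wild type it was -0.27 for Spred3, -0.0029 for Spry1 and -0.76 for Spry2 (adjusted p = 0.489 by limma over all tested genes), and in the knockout -0.075 for Spred3, -0.36 for Spry1, -0.21 for Spry2 and -0.083 for Spry4. Interactions turned to 0.20 for Spred3 and 0.56 for Spry2. The Spred1 genotype difference turned to 0.11 over both treatments and 0.024 under inhibitor. Slopes on Acta2 were -0.12 for Spred2, -0.23 for Spry1 and -0.084 for Spry2, those of Spred3 (0.28) and Spry4 (0.10) lost their call, and 120 genes were called in place of 6939. Within the higher 8, 3842 genes were called, Spry1 (0.48) gained a call and Spred3 (0.17) lost it. Genotype differences turned to -0.0029 for Spred1 and 0.035 for Spry2 under vehicle and to 0.087 for Spry1 under inhibitor, and the wild-type Spry4 inhibitor difference to 0.26. Within the knockout, 3267 genes had a called slope, Spry1 (0.50) gained a call and Spred3 (0.23) lost it. The cause was not tested, beyond each subset holding 8 libraries.

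Quantile normalization gave slopes of -0.14 for Spred1, now called, and -0.042 for Spred2, and an inhibitor difference in the knockout of -0.032 for Spred3. Median-ratio scaling gave a Spred2 slope of -0.0073 and a Spred3 interaction of 0.0016. A term for the library-number set turned the Spred1 slope to 0.0073. Replicate numbers did not pair the samples, since 10 of 24 same-numbered pairs correlated over 0.1 (r from -0.53 to 0.73) and 5 of 16 libraries correlated best with their own number. A replicate block turned the Spred1 slope to 0.016 and changed no call of a member.

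Leaving out single libraries changed signs of small differences. Genotype differences ran from -0.097 to 0.00099 for Spred1 over both treatments and from -0.18 to 0.19 for Spry1 under inhibitor. Averaged inhibitor differences ran from -0.049 to 0.076 for Spred3, -0.033 to 0.26 for Spry2 and -0.040 to 0.16 for Spry4. In the wild type they ran from -0.11 to 0.14 for Spred3, -0.11 to 0.47 for Spry2 and -0.19 to 0.068 for Spry4, and in the knockout from -0.12 to 0.12 for Spred3, -0.18 to 0.26 for Spry1, -0.14 to 0.27 for Spry2 and -0.017 to 0.38 for Spry4. Interactions ran from -0.023 to 0.075 for Spred2, -0.14 to 0.11 for Spred3 and -0.43 to 0.15 for Spry2. The Spry1 slope ran from 0.12 to 0.27 and was called in limma without WT_vehicle 1 (adjusted p = 0.0175), WT_PD 2 (adjusted p = 0.0407) or WT_PD 4 (adjusted p = 0.0496). Spred3, at 86 to 315 reads a library, is the member that depth limits most.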
